A study of Mus musculus with 6 samples.

Results

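The genes described here are 37 mouse genes that mark macrophages and their states, read in subcutaneous tumours of DU145 cells, a human prostate cancer line, grown in male nude mice. They were chosen by symbol in the mouse count table, where all 37 were found among 55536 named genes, and they were sorted into 6 roles: identity (14 genes), C1q (3), resident (11), lipid-associated (4), monocyte (2) and activation (3). The tested tumours carry the treatment label Zelnorm and the group prefix MBZ, and are the libraries MBZ_254, MBZ_257 and MBZ_259. The comparison tumours are labelled control and are NC10, NC4 and NC9; what the control mice were given is not stated. Zelnorm (tegaserod, an agonist of a serotonin receptor) was given daily by mouth after random assignment of mice with palpable tumours, and the labels give no dose. The series asks about the immune surroundings of the tumour, to which macrophages belong. The labels name no animals, so the p-values measure the spread between these samples. Nude mice lack a thymus and therefore most T cells, but keep macrophages, so the mouse reads of these tumours can hold a host macrophage signal.

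Macrophages reach a tumour as resident tissue cells or as monocytes from the blood, and their state is read from marker genes. Identity genes encode surface receptors, Fc receptors with their adaptors, and lysosomal enzymes. Resident and alternatively activated cells carry scavenger and lectin receptors such as Cd163, Lyve1 and Mrc1, and in mouse tissue the Lyve1, Folr2 and Cd163 group is known from cells beside vessels. Lipid-associated cells carry Trem2, Gpnmb, Spp1 and Apoe. Monocytes newly come from blood carry Ly6c2 and Plac8, and inflammatory activation raises Tnf, Cd86 and the oxidase gene Cybb.

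The mouse table held 5817165 to 9050985 counts in the Zelnorm libraries and 6158251 to 9228446 in the control libraries. Of the counts of both species, mouse counts were 23.4% in MBZ_254, 15.1% in MBZ_257 and 19.7% in MBZ_259. They were 19.2% in NC10, 22.3% in NC4 and 19.0% in NC9. Levels below are scaled to mouse counts alone, so they do not measure macrophage transcript per whole tumour. Whether a separation of the groups holds per count of both species was not tested. Of 14459 mouse genes that passed the filter on low counts, edgeR's quasi-likelihood test called 0 at an adjusted p under 0.05, which is 0% of the genes, and 253 (1.75%) had an unadjusted p under 0.05. DESeq2 called 6 genes (0.0415%), limma-voom 0 (0%), and edgeR without the count filter 2 (0.0079%). None of the macrophage genes was among those called at an adjusted p under 0.05. The defining macrophage markers were present in each tumour: Adgre1, which encodes F4/80, had at least 1065 counts and Cd68 at least 850 counts in every library.

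Of the 37 genes 35 passed the filter, and Timd4 and Marco did not. None of the 35 was called by edgeR (smallest adjusted p = 1.00), DESeq2, limma-voom or edgeR without the filter. At an unadjusted p under 0.05 there was 1 gene in edgeR (Lyz2, higher in Zelnorm; 1.75% of all tested genes, 0.719% counting those higher), 2 in DESeq2 (Lyz2 and Cd209d; 1.85%) and 1 in limma-voom (Lyz2; 1.78%). The log2 fold change of Zelnorm over control was above 0 in 28 of the 35, where 53.9% of all tested genes were above 0. The median was 0.15 over the 35 genes and 0.02 over all tested genes. Groups that did not overlap were found in 4 genes with Zelnorm higher (Lyz2, Adgre1, C1qb and C1qc; 2.52% of all tested genes) and in 1 gene with Zelnorm lower (Cd209d; 3% of all tested genes). In bulk tissue, fewer cells of a type and less RNA per cell cannot be told apart, and this holds for every level below.

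**Figure D1:**
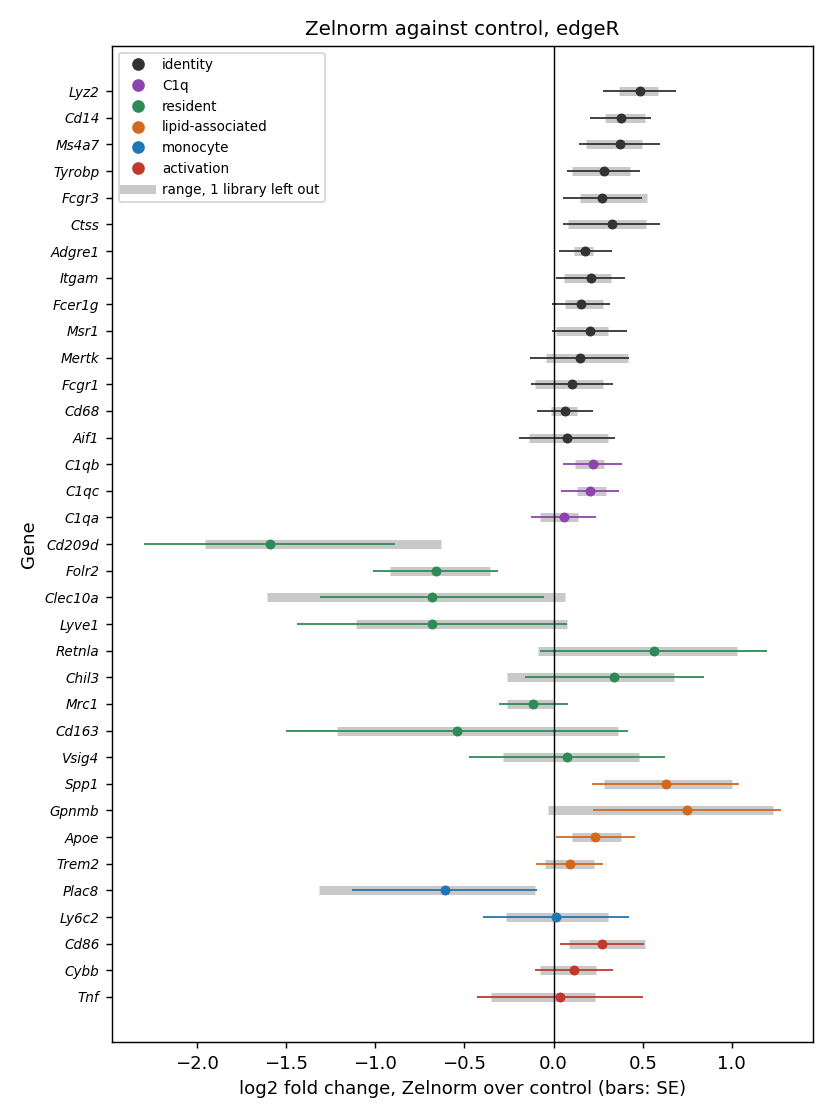
log2 fold change of Zelnorm over control for the 35 tested genes, in role order from top to bottom, with the standard error as a thin bar and the range over 6 fits that each leave out 1 library in grey. All 14 identity genes lie right of 0 and Cd209d lies farthest left at -1.59.

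On the scale of CPM (counts per 1000000) per kilobase of exon, averaged over the 6 libraries, the genes spanned a wide range of levels. Apoe, the lipid carrier apolipoprotein E, was highest at 2278 CPM per kb, followed by Lyz2 at 1397, the cathepsin gene Ctss at 546, C1qa at 524 and Spp1 at 401. Resident genes lay lower: Mrc1 led them at 56.8 CPM per kb, then Retnla at 29.5 and Folr2 at 25.0. The lowest were Tnf at 1.31, Timd4 at 0.55 and Marco at 0.15 CPM per kb. The exon union was used as the length. With the longest transcript the level of Apoe was 3459 CPM per kb.

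**Figure D2:**
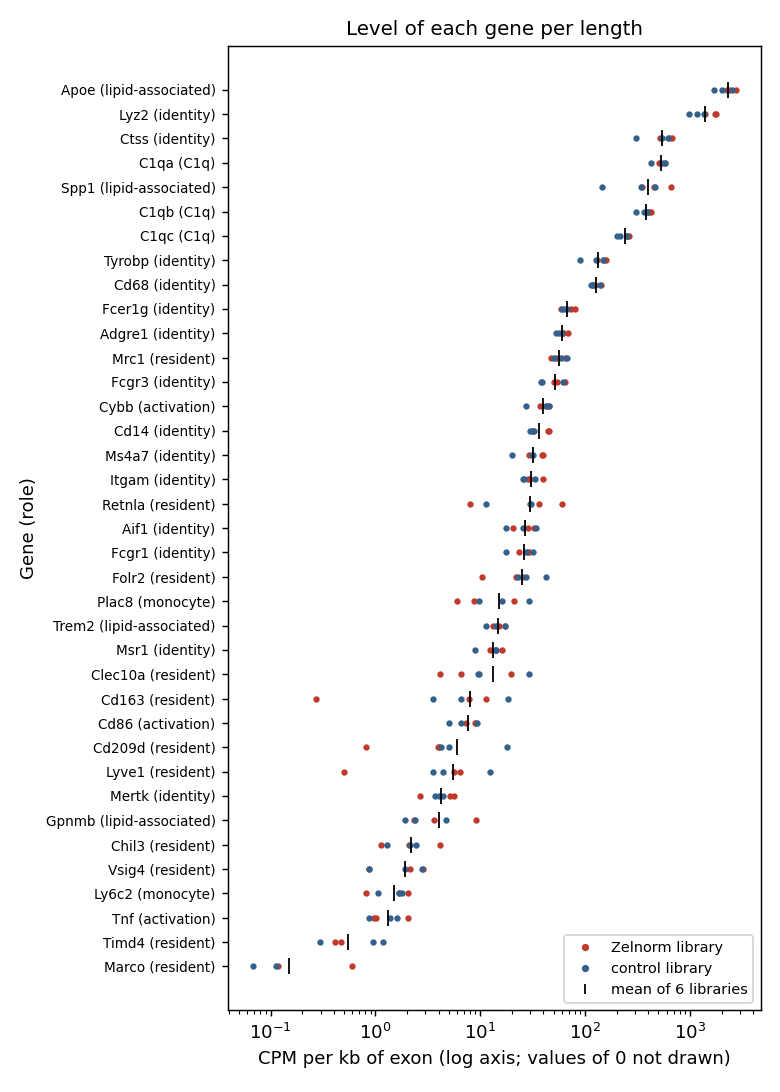
Level of each of the 37 genes per kilobase of exon on a log axis, with 1 point per library and a tick at the mean of the 6. Apoe (2278 CPM per kb) and Lyz2 (1397) lead, and the points of Cd163, Lyve1 and Cd209d spread far more than those of the identity genes.

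All 14 identity genes had a log2 fold change above 0, from 0.06 to 0.48 with a median of 0.21. Their spread between tumours was near that of other genes, with a median ratio of the highest to the lowest tumour of 1.77, against 1.72 over tested genes with no library at 0. Lyz2, the lysozyme of myeloid cells (chromosome 10, 117277331 to 117282321), was at 1829, 2320 and 2282 CPM in the Zelnorm tumours MBZ_254, MBZ_257 and MBZ_259, against 1782, 1523 and 1296 CPM in the controls NC10, NC4 and NC9. Every Zelnorm tumour lay above every control, although MBZ_254 and NC10 were nearly level. Its log2 fold change was 0.48 (SE 0.20; edgeR unadjusted p = 0.0461, adjusted p = 1.00), and it stayed between 0.37 and 0.59 with any 1 library left out. Reads of Lyz2 could be shared with its near copy Lyz1, and how they were divided was not tested. Lyz1 was at 14.5, 8.51 and 30.5 CPM in Zelnorm and 7.86, 4.54 and 3.37 CPM in control tumours (log2 1.79, SE 0.51). Lyz2 and Lyz1 together averaged 2162 ± 276 CPM in Zelnorm and 1539 ± 245 CPM in control tumours (SD, n = 3 each).

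Adgre1, the F4/80 receptor (chromosome 17, 57358691 to 57483527), was at 222, 197 and 199 CPM in the Zelnorm tumours and 193, 183 and 170 CPM in the controls. The groups did not overlap, but MBZ_257 and NC10 were nearly level, and the log2 fold change was 0.18 (SE 0.15). Cd14, the co-receptor for bacterial lipopolysaccharide, was at 55.4, 77.2 and 78.3 CPM in Zelnorm and 56.8, 51.6 and 54.1 CPM in control tumours. MBZ_257 and MBZ_259 were high and MBZ_254 lay among the controls, with a log2 fold change of 0.38 (SE 0.17). Ms4a7, a membrane protein of macrophages, was at 175, 174 and 130 CPM in Zelnorm and 142, 89.2 and 139 CPM in control tumours, so the groups overlapped.

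Tyrobp, the adaptor DAP12 of activating receptors, was at 87.4, 101 and 105 CPM in Zelnorm and 97.8, 59.6 and 84.2 CPM in control tumours. Fcgr3, a low-affinity Fc receptor for IgG, was at 93.2, 110 and 87.5 CPM in Zelnorm and 108, 66.1 and 67.5 CPM in control tumours. In both genes NC10 lay within the Zelnorm range and NC4 was the lowest tumour. NC4 was the lowest of the 6 tumours in 8 of the 14 identity genes, where it was the lowest in 19.9% of all tested genes. Without NC4 the median log2 fold change of the identity genes was 0.15, and that of Tyrobp was 0.10 in place of 0.28. The other identity genes, Ctss, Itgam, Fcer1g, Msr1, Mertk, Fcgr1, Cd68 and Aif1, had log2 fold changes of 0.06 to 0.33. Cd68, the lysosomal marker macrosialin, was the flattest of the 14, at 161 ± 13.2 CPM in Zelnorm and 155 ± 15.5 CPM in control tumours (SD, n = 3 each), and its highest tumour was 1.23 times its lowest.

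The 3 chains of C1q, the first component of the classical complement pathway, are encoded side by side on chromosome 4 (C1qb at 136880129 to 136886187, C1qc at 136889804 to 136893065, C1qa at 136895917 to 136898803) and macrophages are a main source of them. C1qb was at 438, 466 and 428 CPM in Zelnorm and 422, 392.2 and 330 CPM in control tumours. C1qc was at 488, 507 and 487 CPM in Zelnorm and 486, 413 and 385 CPM in control tumours. The Zelnorm tumours were close to one another, and NC10 was just below the lowest of them in both genes. C1qa overlapped, at 600, 526 and 540 CPM in Zelnorm and 601, 564 and 436 CPM in control tumours. Log2 fold changes were 0.22 (SE 0.16) for C1qb, 0.21 (SE 0.16) for C1qc and 0.06 (SE 0.18) for C1qa, and the sign of C1qa turned without MBZ_254 (-0.01) or without NC9 (-0.07).

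The resident genes differed most between tumours, and mainly within the groups. Cd163, the scavenger receptor for haemoglobin bound to haptoglobin (chromosome 6, 124304656 to 124330527), was at 61.9, 1.48 and 42.4 CPM in the Zelnorm tumours, against 36.1, 99.8 and 19.4 CPM in the controls. MBZ_257 had 8 counts of Cd163 in all, while the other tumours had 179 to 770. The highest tumour, NC4, was 67.4 times the lowest, and the log2 fold change between groups was -0.54 with an SE of 0.96. Lyve1, a receptor for hyaluronan (chromosome 7, 110850607 to 110863239), was at 16.4, 1.48 and 18.5 CPM in Zelnorm and 12.99, 36.0 and 10.4 CPM in control tumours. Again MBZ_257 was lowest, with 8 counts, NC4 was highest, and the other 4 tumours lay together.

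**Figure D3:**
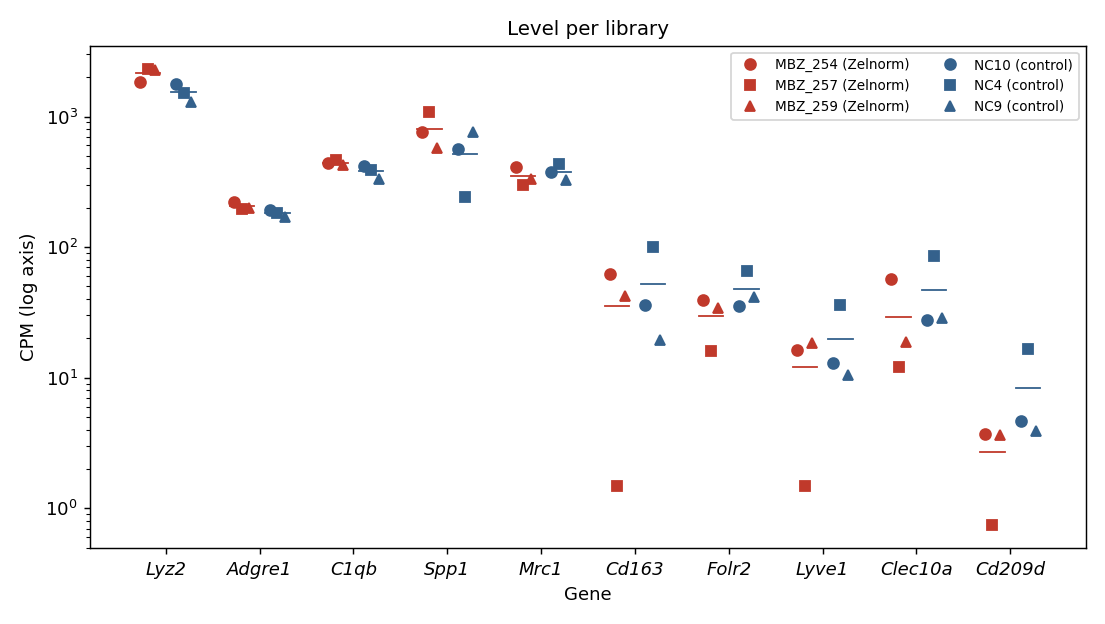
CPM on a log axis for 10 genes, with the Zelnorm libraries in red left of the control libraries in blue and a line at each group mean. Lyz2, Adgre1, C1qb and Mrc1 keep their points together, while Cd163 reaches from 1.48 CPM in MBZ_257 to 99.8 CPM in NC4.

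Folr2, a folate receptor of resident macrophages, was at 39.4, 16.1 and 34.1 CPM in Zelnorm and 35.1, 65.3 and 41.8 CPM in control tumours (log2 fold change -0.66, SE 0.35). Clec10a, a lectin for galactose and N-acetylgalactosamine, was at 56.5, 12.0 and 18.9 CPM in Zelnorm and 27.6, 84.9 and 28.5 CPM in control tumours (log2 -0.68, SE 0.63). Cd209d, the lectin SIGNR3 (chromosome 8, 3871824 to 3878555), was at 3.68, 0.74 and 3.66 CPM in Zelnorm and 4.65, 16.6 and 3.91 CPM in control tumours. All 3 genes were lowest in MBZ_257 and highest in NC4. Cd209d was the only gene of the 35 whose Zelnorm tumours all lay below all controls, although MBZ_254 and NC9 were nearly level, and its log2 fold change of -1.59 (SE 0.70) was -0.63 without NC4.

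Mrc1, the mannose receptor CD206, was steadier, at 411, 299 and 334 CPM in Zelnorm and 373, 431 and 325 CPM in control tumours (log2 -0.11, SE 0.19), with MBZ_257 and NC4 again at the ends. Retnla, a secreted marker of alternative activation in mouse, was at 36.3, 4.81 and 21.9 CPM in Zelnorm and 6.73, 17.8 and 18.4 CPM in control tumours (log2 0.56, SE 0.64). Here MBZ_254 was the highest tumour, and without it the log2 fold change was -0.09. Chil3, the lectin Ym1, and Vsig4, a complement receptor, had log2 fold changes of 0.34 (SE 0.50) and 0.07 (SE 0.55) from 7 to 59 counts a library. Timd4, a receptor for dying cells, had 7, 0 and 9 counts in Zelnorm and 4, 20 and 19 in control tumours, and the 0 in MBZ_257 allows up to 3 counts or 0.56 CPM. Marco, a scavenger receptor, had 9, 0 and 2 counts in Zelnorm and 0, 1 and 2 in control tumours, too few for a comparison.

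The promoters of 5 of these genes are given for reference, from RefSeq on GRCm38.p6, 250 bases before to 50 after the start. Cd163 and Cd209d are shown for their spread across tumours, Mrc1 and C1qb for their small spread, and Lyz2 as the gene with the smallest p of the 35. Capitals mark GAGGAA, the core of sites for the myeloid factor PU.1, and TGCTGA, found in sites for MAF factors, on either strand.
Cd163, chr6:124304401-124304700, plus strand: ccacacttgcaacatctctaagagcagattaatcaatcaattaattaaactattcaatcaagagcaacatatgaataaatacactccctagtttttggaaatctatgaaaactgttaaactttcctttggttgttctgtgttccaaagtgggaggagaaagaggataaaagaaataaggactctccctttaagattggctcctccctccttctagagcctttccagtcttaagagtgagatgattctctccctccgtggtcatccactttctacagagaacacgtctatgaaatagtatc
Cd209d, chr8:3878450-3878749, minus strand: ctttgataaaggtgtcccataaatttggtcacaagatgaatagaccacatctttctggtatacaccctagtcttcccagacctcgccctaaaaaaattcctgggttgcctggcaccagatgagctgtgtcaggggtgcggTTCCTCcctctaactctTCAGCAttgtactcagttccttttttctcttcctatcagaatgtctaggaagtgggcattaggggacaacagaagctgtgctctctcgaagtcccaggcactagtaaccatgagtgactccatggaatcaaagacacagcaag
Mrc1, chr2:14229164-14229463, plus strand: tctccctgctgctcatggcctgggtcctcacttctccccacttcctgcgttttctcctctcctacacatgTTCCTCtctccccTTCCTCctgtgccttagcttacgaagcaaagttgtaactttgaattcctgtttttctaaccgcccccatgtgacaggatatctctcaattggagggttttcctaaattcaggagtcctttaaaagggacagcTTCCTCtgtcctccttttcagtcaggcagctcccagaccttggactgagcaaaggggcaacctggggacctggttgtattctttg
C1qb, chr4:136886151-136886450, minus strand: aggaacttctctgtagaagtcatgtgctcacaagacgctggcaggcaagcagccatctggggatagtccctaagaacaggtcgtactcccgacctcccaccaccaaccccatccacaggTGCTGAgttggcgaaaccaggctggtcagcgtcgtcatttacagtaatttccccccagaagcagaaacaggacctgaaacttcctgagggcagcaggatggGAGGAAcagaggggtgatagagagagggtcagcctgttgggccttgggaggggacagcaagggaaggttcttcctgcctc
Lyz2, chr10:117282223-117282522, minus strand: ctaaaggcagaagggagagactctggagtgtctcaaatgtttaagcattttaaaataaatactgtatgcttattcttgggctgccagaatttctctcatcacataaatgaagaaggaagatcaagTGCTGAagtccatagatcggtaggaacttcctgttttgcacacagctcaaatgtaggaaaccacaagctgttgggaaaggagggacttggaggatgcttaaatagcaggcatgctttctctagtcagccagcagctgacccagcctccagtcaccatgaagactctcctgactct
A window was found for 29 of the 37 genes, 7 of them with more than 1 window. GAGGAA on either strand was in a window of 21 of the 29, against 31.3% of 27025 genes of any kind and 30.5% of 17492 protein-coding genes. TGCTGA was in 10 of the 29, against 21.7% and 20.5%, and in 6 of the 9 resident genes with a window. Of the other motifs searched, GGAAGT (which can overlap GAGGAA) was in 17 of the 29 against 26.5% of all genes, AGAGGAAGT (which holds both) in 1 against 1.18%, and TGCTGAC (which holds TGCTGA) in 3 against 5.28%. The motifs were chosen after the letters of the windows were seen, so these shares are no test of enrichment. The Cd163 window held neither capitalised motif, and such matches describe the letters of these windows only.

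The lipid-associated genes had log2 fold changes of 0.09 to 0.75. Spp1, which encodes the secreted protein osteopontin (chromosome 5, 104435118 to 104441050), was at 755, 1085 and 570 CPM in Zelnorm and 563, 240 and 756 CPM in control tumours. MBZ_257 was highest and NC4 lowest, the reverse of 6 of the 9 tested resident genes. Trem2, Fcgr3, Msr1, Cybb and Tnf had the same ends as Spp1, and the share of all tested genes with these ends was not computed. The log2 fold change of Spp1 was 0.63 (SE 0.41), and 0.28 without NC4. Gpnmb, a glycoprotein of lysosome-rich macrophages, was at 59.2, 23.7 and 15.1 CPM in Zelnorm and 15.4, 30.6 and 12.5 CPM in control tumours. Its log2 fold change of 0.75 (SE 0.53) rested on MBZ_254 and was -0.03 without it. Apoe was at 5904, 5048 and 4846 CPM in Zelnorm and 5416, 4350 and 3656 CPM in control tumours (log2 0.24, SE 0.22). Trem2, a lipid-sensing receptor, averaged 75.1 ± 9.87 CPM in Zelnorm and 70.5 ± 14.1 CPM in control tumours (SD, n = 3 each). The median of the 4 genes was 0.43, and 0.11 without MBZ_254.

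The monocyte genes were low. Plac8 was at 33.5, 9.62 and 13.9 CPM in Zelnorm and 15.4, 46.5 and 25.6 CPM in control tumours, again lowest in MBZ_257 and highest in NC4 (log2 -0.61, SE 0.52). Ly6c2 was at 4.57, 2.22 and 5.60 CPM in Zelnorm and 2.89, 4.93 and 4.56 CPM in control tumours (log2 0.01, SE 0.41), and its counts were not whole in the 6 libraries. Its near copy Ly6c1, which endothelium also expresses, was at 72.0, 32.01 and 71.7 CPM in Zelnorm and 60.9, 170 and 71.5 CPM in control tumours, so the division of reads between the copies bears on Ly6c2.

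The activation genes showed no separation. Cybb, the membrane subunit of the phagocyte NADPH oxidase, was at 245, 264 and 216 CPM in Zelnorm and 263, 159 and 247 CPM in control tumours (log2 0.12, SE 0.22). Cd86, a costimulatory ligand, was at 33.2, 32.6 and 26.6 CPM in Zelnorm and 33.8, 18.5 and 24.1 CPM in control tumours (log2 0.27, SE 0.24). Tnf, the inflammatory cytokine, was at 1.65, 3.33 and 1.60 CPM in Zelnorm and 2.24, 1.43 and 2.61 CPM in control tumours (log2 0.04, SE 0.46). NC4 was the lowest tumour in all 3 genes.

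The tumours at the ends of the range differed between roles. Of 9 tested resident genes, 6 were lowest in MBZ_257 and highest in NC4 (Cd163, Lyve1, Folr2, Clec10a, Cd209d and Mrc1), where 9.48% of all tested genes had this order. Of the 2 monocyte genes Plac8 had it and Ly6c2 did not, and none of the 14 identity genes had it. This order was picked out after the values were seen. A range over 4-fold between the highest and lowest tumour was looked for in log2 CPM after adding a prior count of 2. It was found in 6 of 9 resident, 2 of 4 lipid-associated and 1 of 2 monocyte genes. None of the 14 identity, 3 C1q and 3 activation genes had it. The share was 7.77% of all tested genes and 2.94% of those with a mean of at least 10 CPM. The median ratio of highest to lowest tumour was 7.06 in resident, 3.68 in monocyte, 3.07 in lipid-associated and 1.77 in identity genes.

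**Figure D4:**
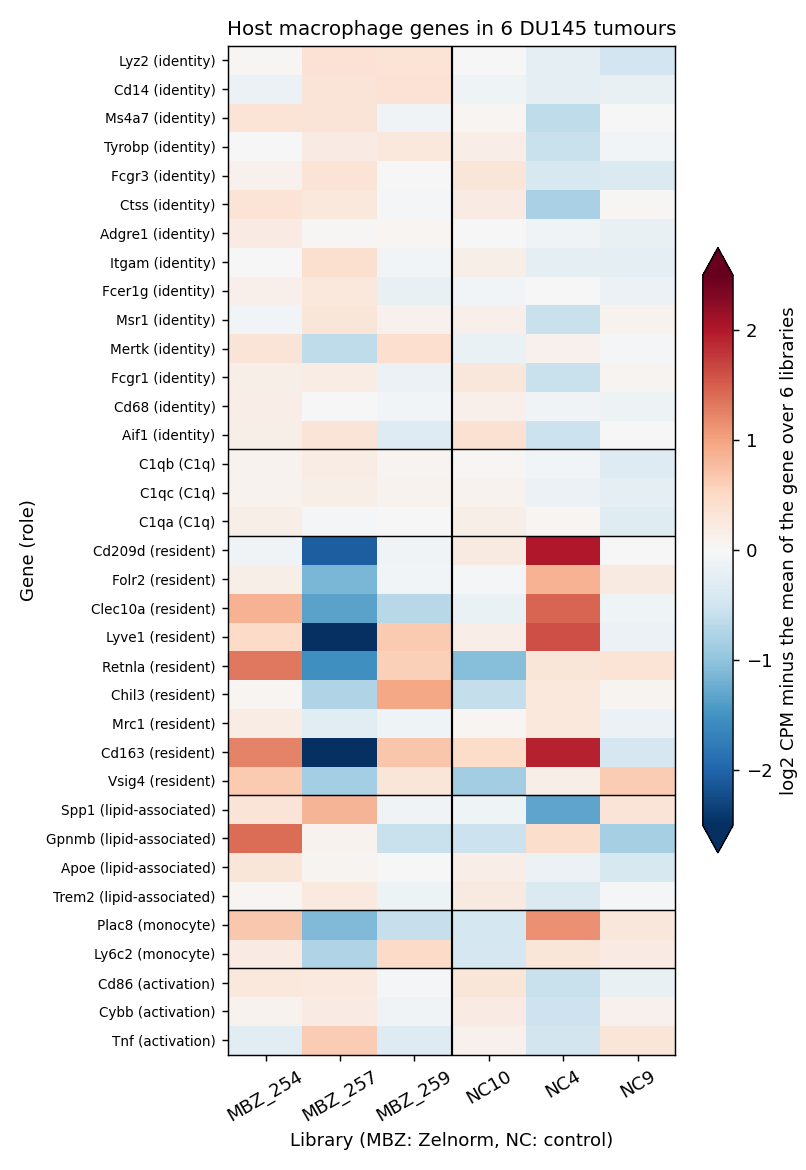
log2 CPM of the 35 tested genes minus the mean of each gene over the 6 libraries, with Zelnorm libraries left of control libraries and lines between roles; colours end at the ends of the bar, which Cd163 and Lyve1 pass in MBZ_257. The resident block shows MBZ_257 in blue and NC4 in red, and the identity block stays pale.

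To describe the make-up of macrophage transcripts apart from their amount, the mean log2 CPM of each role was set against that of the identity genes within each tumour. The resident genes lay at -2.43, -4.67 and -2.65 log2 units from the identity genes in the Zelnorm tumours, and at -3.16, -1.53 and -2.69 in the controls. The group means were -3.25 ± 1.24 in Zelnorm and -2.46 ± 0.84 in control tumours (SD, n = 3 each), a difference of -0.79 that is smaller than the spread in either group. The 6 tumours spanned 8.84-fold on this measure, with MBZ_257 and NC4 at the ends. Without both of these tumours the difference was 0.38, and the median log2 fold change of the resident genes was 0.45 in place of -0.54. The C1q genes were at 1.96 ± 0.06 in Zelnorm and 2.03 ± 0.24 in control tumours, from 1.82 in NC9 to 2.29 in NC4. Lipid-associated genes were at 1.25 ± 0.32 in Zelnorm and 1.07 ± 0.08 in control tumours, and monocyte genes at -3.93 ± 0.74 in Zelnorm and -3.33 ± 0.80 in control tumours. Activation genes were at -2.30 ± 0.18 in Zelnorm and -2.22 ± 0.19 in control tumours.

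**Figure D5:**
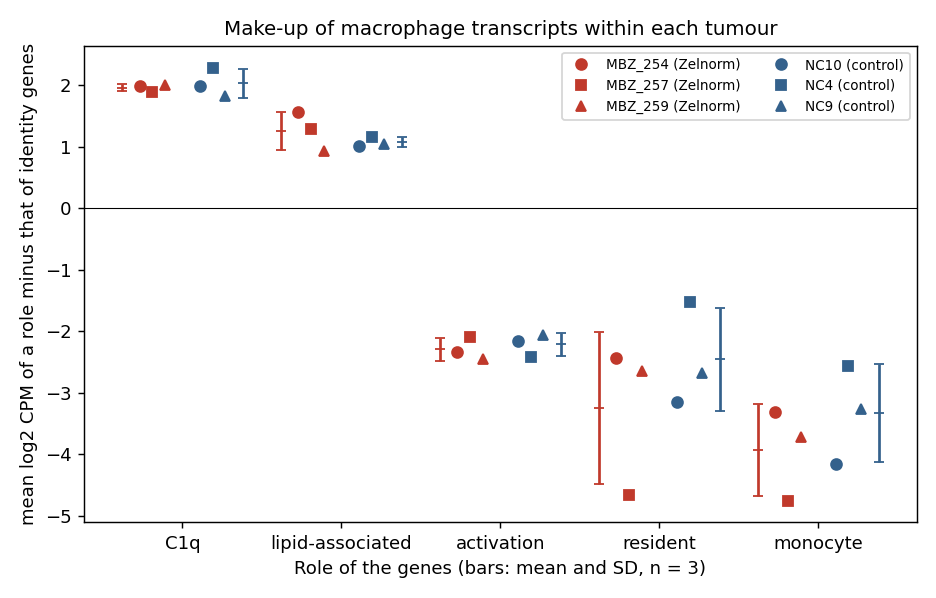
Mean log2 CPM of each role minus that of the identity genes in each tumour, with Zelnorm in red left of control in blue and bars for the mean and SD of 3 tumours. Resident genes run from -4.67 in MBZ_257 to -1.53 in NC4, and C1q genes stay between 1.82 and 2.29.

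Other genes of the same pathways came from 6 further lists, and edgeR called 0 of their tested genes, as it called 0% of all tested genes. Those at an unadjusted p under 0.05 in edgeR are given below, where 1.75% of all tested genes were. A log2 fold change above 0 was found in 53.9% of all tested genes, and their median was 0.02. Of the list of resident and alternatively activated macrophages, 4 of 19 tested genes were above 0 and 15 below (median log2 fold change -0.30), 2 of them at an unadjusted p under 0.05. These were Ccl22, a chemokine for regulatory T cells, at 3.43, 5.74 and 6.97 CPM in Zelnorm and 2.24, 1.81 and 3.15 CPM in control tumours, and Cd209f. Cd209f, a lectin of the same cluster as Cd209d, was at 12.7, 0.56 and 8.34 CPM in Zelnorm and 19.2, 71.3 and 11.8 CPM in control tumours. Like Cd163 it was lowest in MBZ_257 and highest in NC4, as were 7 of the 19 genes, itself included, and 9.48% of all tested genes. The tumours between these ends were in another order. Cd209a, also expressed by dendritic cells, had a log2 fold change of -0.96 (SE 0.47).

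Of 13 genes of macrophage growth and lineage, 7 were above 0 and 6 below (median 0.01), with none at an unadjusted p under 0.05. Over all tested genes these shares were 53.9% above 0 and 1.75% at an unadjusted p under 0.05 in edgeR. Csf1r, the receptor for the macrophage growth factor, averaged 471 ± 15.7 CPM in Zelnorm and 513 ± 83.5 CPM in control tumours (SD, n = 3 each), and its ligand Csf1 had a log2 fold change of -0.31 (SE 0.27). Cebpb, a myeloid transcription factor, had 0.20 (SE 0.36). Of 15 Fc receptor and adaptor genes, 13 were above 0 (median 0.11). Fcgr4, an Fc receptor, was at 21.3, 18.3 and 14.7 CPM in Zelnorm and 14.4, 8.68 and 11.1 CPM in control tumours (log2 0.67, SE 0.25), the 1 gene of its list at an unadjusted p under 0.05. Cyba, the partner of Cybb in the oxidase, had 0.37 (SE 0.16) and Btk, a tyrosine kinase, -0.33 (SE 0.17).

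Of 15 classical activation genes 11 were above 0 (median 0.26), against 53.9% of all tested genes. Log2 fold changes were 0.95 (SE 0.42) for the cytokine Il1b, 1.21 (SE 0.52) for the prostaglandin synthase Ptgs2 and 0.69 (SE 0.38) for the costimulator Cd80. Il1b was at 32.5, 62.9 and 103 CPM in Zelnorm and 47.8, 23.9 and 31.7 CPM in control tumours. Without MBZ_259 its log2 fold change was 0.47. Ptgs2 was at 24.3, 4.81 and 22.6 CPM in Zelnorm and 5.77, 7.91 and 8.80 CPM in control tumours. Cd80 was at 3.43, 3.33 and 4.91 CPM in Zelnorm and 2.24, 1.69 and 3.26 CPM in control tumours. The median of this list was -0.03 without MBZ_254. Of 16 genes of lipid handling and lysosome 11 were above 0 (median 0.03): Fabp5, a fatty acid carrier, had 0.43 (SE 0.20), the scavenger receptor Cd36 -0.74 (SE 0.37) and Syngr1 0.49 (SE 0.26). Of 10 monocyte genes 5 were above 0 (median -0.11). Hp, which encodes haptoglobin, was at 75.8, 58.1 and 17.3 CPM in Zelnorm and 65.7, 310 and 125 CPM in control tumours, and had an unadjusted p under 0.05, as had the integrin gene Itgal at 0.59 (SE 0.23). All 10 tested adipocyte genes were below 0 (median -1.85), and which cells gave the reads of Hp and Cd36 was not tested. Ccr2, the receptor that brings monocytes out of the marrow, had -0.69 (SE 0.34).

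Other host tissue differed between the same tumours. The summed level of 9 fibroblast genes was 13544 to 31584 CPM in Zelnorm and 25559 to 42561 CPM in control tumours. The 8 endothelial genes summed to 794 to 1354 CPM in Zelnorm and 996 to 1568 CPM in control tumours, and the 12 adipocyte genes to 172 to 314 CPM in Zelnorm and 358 to 1076 CPM in control tumours. The 6 erythroid genes summed to 324 to 414 CPM in Zelnorm and 352 to 1777 CPM in control tumours. In each of these lists MBZ_257 was the lowest and NC4 the highest tumour, as in 6 of the 9 tested resident macrophage genes. The 8 mast cell genes had the same ends, at 32.6 to 91.5 CPM in Zelnorm and 68.5 to 133 CPM in control tumours. Lyve1 is also a gene of lymphatic vessels. The 7 lymphatic genes summed to 129 to 180 CPM in Zelnorm and 137 to 188 CPM in control tumours, and MBZ_257 was again lowest and NC4 highest. Most of that sum came from Itga9, Flt4 and Pdpn, while Ccl21a was at 0 and Prox1 at no more than 1.49 CPM in any library. Whether these tissues had a part in the resident pattern was not tested.

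Genes of other immune cells were also detected. The 13 neutrophil genes summed to 104 to 285 CPM in Zelnorm and 180 to 225 CPM in control tumours, mostly from Mmp9, which macrophages also express. Of the 13 genes 6 passed the filter on low counts. Csf3r, S100a8 and S100a9 were detected in every tumour, S100a8 at only 0.74 CPM in MBZ_257. Camp, Ltf, Ngp, Elane, Mpo and Retnlg were each at 0 in part of the libraries, and Ly6g had 0 counts in the 6 libraries. The 10 dendritic cell genes summed to 119 to 139 CPM in Zelnorm and 107 to 141 CPM in control tumours, mostly from Itgax, which macrophages share. The 9 T and NK cell genes summed to 7.40 to 31.1 CPM in Zelnorm and 13.4 to 28.4 CPM in control tumours. The 8 B and plasma cell genes summed to 80.5 to 310 CPM in Zelnorm and 90.1 to 102 CPM in control tumours, with the highest value in MBZ_254. The 10 skeletal muscle genes ranged from 71.7 to 6929 CPM in Zelnorm and 416 to 2963 CPM in control tumours, and the 6 keratinocyte genes from 17.5 to 37.003 CPM in Zelnorm and 19.1 to 25.9 CPM in control tumours.

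The human table holds the tumour cells, and 34 of the 37 genes have a human partner there. Of these, 10 had no human count in the 6 libraries: TYROBP, MSR1, C1QA, C1QB, C1QC, TREM2, CD86, FOLR2, CLEC10A and VSIG4. A further 9 had 1 to 10 counts in all, CD163 among them with 2. In 6 genes the human counts were above 10% of the mouse counts: GPNMB at 198%, MERTK at 107%, CD68 at 74.3%, MARCO at 21.4%, PLAC8 at 13.1% and CYBB at 10.1%. These shares differed between tumours. GPNMB ran from 53.2% to 890%, highest in NC9, and was at 123% without that tumour. PLAC8 ran from 3.03% to 86.5%, highest in MBZ_257, and was at 9.56% without it. MERTK ran from 47.5% to 205%, CD68 from 57.6% to 112% and CYBB from 8.67% to 11.4%. MARCO rests on 3 human counts, all in NC9. The source of the human reads was not tested.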

How the data were processed

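The authors deposited estimated counts for each gene of 6 libraries, in a mouse and a human table. The submitters' processing notes name HISAT2, StringTie, DESeq2, edgeR, GRCh38 and GRCm38, without versions or roles, and do not say how reads were divided between species. Raw counts had been planned for, but 27.0% of the mouse values above 0 were not whole, so the values were rounded. Columns show the group (MBZ or NC) and a number found in no label, so each library was tied to its group alone. Unnamed rows (856 of 56392, at most 0.468% of a library) were left out.

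Zelnorm was compared with control on all named mouse genes with edgeR 4.0.16 (R 4.3.3): filterByExpr, TMM, the quasi-likelihood test and Benjamini-Hochberg adjustment over all tested genes. An SE is the size of the log2 fold change divided by the root of F. CPM values use TMM-scaled libraries. Coordinates and lengths come from GENCODE vM21 (GRCm38). The script was tested on simulated data. Alternatives were 2 other scalings, scaling without muscle, adipocyte and erythroid genes, DESeq2 1.42.0, limma-voom (limma 3.58.1), 2 other filters, leaving out each library and, chosen after seeing the data, leaving out both NC4 and MBZ_257.

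The macrophage genes, their roles and all lists were chosen with earlier results of these data known. Values in every library were given for the genes of each role with the smallest p (3, or 5 for identity and resident) or the highest level per kb, for genes whose groups did not overlap, and for those whose sign turned with 1 library left out at an unadjusted p under 0.2. Up to 3 genes of each pathway list were named by smallest p. Cd163, Cd68, the printed promoters and motifs, and the human partners were chosen after their values or letters were seen. The floor of 3 counts for a 0 covers counting error only.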

Additional observations from a re-analysis of the deposited data

How the results depend on the processing

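No paired analysis was possible because the columns carry no replicate number of the titles. No gene of the 35 was called under any of the 14 alternatives. Of 209 log2 fold changes compared under other scalings, tools and filters, 207 kept their sign. These 209 do not cover every alternative of that kind. The exceptions were near 0: limma-voom gave -0.00024 for Ly6c2 and -0.058 for Tnf. DESeq2 called 6 mouse genes and edgeR without the count filter 2, against 0, and each put 2 of the genes described here at an unadjusted p under 0.05, against 1. Among these were Cd209d in both, Lyz2 in DESeq2 and Folr2 without the filter. With 1 library left out that number ran from 0 (without NC4) to 5 (without MBZ_254), and it was 3 without both NC4 and MBZ_257. With 1 library left out, the median log2 fold change of the lipid-associated genes ran from 0.11 to 0.56 and that of the resident genes from -0.94 to 0.07. Single genes whose sign turned ran over these ranges: Mertk -0.041 to 0.42, Fcgr1 -0.10 to 0.28, Cd68 -0.014 to 0.13, Aif1 -0.14 to 0.30, C1qa -0.075 to 0.14, Clec10a -1.61 to 0.063, Lyve1 -1.11 to 0.074, Retnla -0.087 to 1.03, Chil3 -0.26 to 0.67, Cd163 -1.21 to 0.36, Vsig4 -0.28 to 0.48, Gpnmb -0.032 to 1.23, Trem2 -0.048 to 0.23, Ly6c2 -0.26 to 0.31, Cybb -0.077 to 0.24, Tnf -0.35 to 0.24. Without both NC4 and MBZ_257 these log2 fold changes turned: Msr1 -0.067, Fcgr1 -0.15, Aif1 -0.26, Clec10a 0.45, Lyve1 0.60, Mrc1 0.11, Cd163 0.94, Trem2 -0.13, Plac8 0.22, Cybb -0.13, Tnf -0.56. In that setting the median was 0.45 for resident and 0.14 for lipid-associated genes, and the distance to identity differed between groups by 0.38 for resident, 0.20 for monocyte and -0.29 for activation genes, against -0.79, -0.60 and -0.08. From summed CPM the lipid-associated distance was -0.087 in place of 0.18. Apoe stood at 3459 CPM per kb of its longest transcript, against 2278 per kb of exon. The cause of these shifts was not tested. Leaving out libraries or loosening the filter adds or drops genes at the filter (Timd4 enters in some fits). MBZ_257 has the fewest mouse counts, though not the fewest counts of both species, and so the highest floor. The counts there are few for Timd4 and Marco (0 each), Cd209d (4), Vsig4 (7), Cd163 and Lyve1 (8 each).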
